A study of Canis lupus familiaris with 6 samples.

Results

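The genes described here encode the CD3 chains of the T cell receptor (TCR) and the kinases and adaptors that act first when the receptor is engaged. They were chosen by name: CD3D, CD3E, CD3G, CD247, LCK, ZAP70, LAT, LCP2 and FYN. Of these 9 names, 8 were found among the 31512 genes of the deposited table, and all 8 passed the filter on low values. CD247 was not found as a symbol. A row without a symbol, ENSCAFG00000029072, is described in the table as the CD3 zeta chain, the protein that CD247 encodes, and is given beside the 8 genes without being counted among them.

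The TCR recognises peptide on MHC molecules but has no signaling domain of its own, and the CD3 delta, epsilon, gamma and zeta chains carry its signal into the cell. When the receptor is engaged, the SRC family kinases LCK and FYN phosphorylate tyrosines in the tails of these chains, and the kinase ZAP70 docks there and is activated. ZAP70 then phosphorylates the membrane adaptor LAT and the cytosolic adaptor that LCP2 encodes, on which the complex for calcium and RAS signaling is built. The CD3 delta, epsilon and gamma chains mark T cells in blood. NK cells also use the zeta chain, LCK, ZAP70, FYN, LAT and LCP2. FYN, LAT and LCP2 are used by platelets too, and LCP2 by neutrophils and monocytes as well.

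Whole blood was taken on day 30 from adult Beagle dogs of 1.5 years, and RNA-Seq was done on 3 control dogs and 3 dogs given CPP-Se, a chelate of casein phosphopeptide with selenium. All dogs ate the same maintenance food. The control group received 30 g of a snack without CPP-Se, and the CPP-Se group received 30 g of a snack that contained 0.03% of it. The 6 libraries came from a feeding study of 12 dogs, and how these 6 were picked is not given in the sources used here.

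The 6 libraries held 6598173 to 8067034 reads assigned to genes. As is usual for whole blood, 8 hemoglobin genes held a large share of these reads, at 48.7% to 55.9% in 5 dogs and 36.6% in CPP-Se replicate 2, which stood apart. The deposited unit is FPKM, which divides the fragments counted on each gene by its length and by a size for the library. FPKM are therefore levels per length, and are comparable between genes. Each of the 8 genes had between 34 and 1592 reads in each dog, so counting error is largest for CD3G and CD3D. In bulk blood, fewer cells of a type and less RNA per cell cannot be told apart.

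CD3D, CD3E, LCK, ZAP70 and FYN were higher in all 3 CPP-Se dogs than in any control dog, and LCP2 was lower in all 3. CD3G and LAT overlapped between the groups. Thus 6 of the 8 genes had groups that did not overlap, 5 of them higher and 1 lower, against 23.0% of the 9847 genes tested in either direction (10.4% higher and 12.6% lower). The median log2 fold change (CPP-Se over control, on log2(FPKM + 1)) was 0.72 over the 8 genes, and -0.0043 over all genes tested. None of the 8 passed an adjusted p under 0.05 with a fold change of at least 1.5 (limma with Benjamini-Hochberg adjustment over all genes tested, adjusted p from 0.138 to 0.888). Only 0.0305% of all genes did. An unadjusted p under 0.05 was found for the same 6 genes, against 6.87% of all genes for higher and 9.10% for lower values.

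A negative binomial model of the reads recovered from the FPKM called 4 of the 8 genes, with CD3D, LCK and ZAP70 up-regulated and LCP2 down-regulated, against 4.27% of all genes called (1.47% as higher and 2.79% as lower). In limma-voom on the same reads 0 of the 8 were called, against 0.0102% of all genes. The study singled out some of these genes on the same libraries, so neither count is independent evidence of a direction. The differences of the 8 genes are therefore given below as values with their errors, and the calls as those of the negative binomial model alone.

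**Figure D1:**
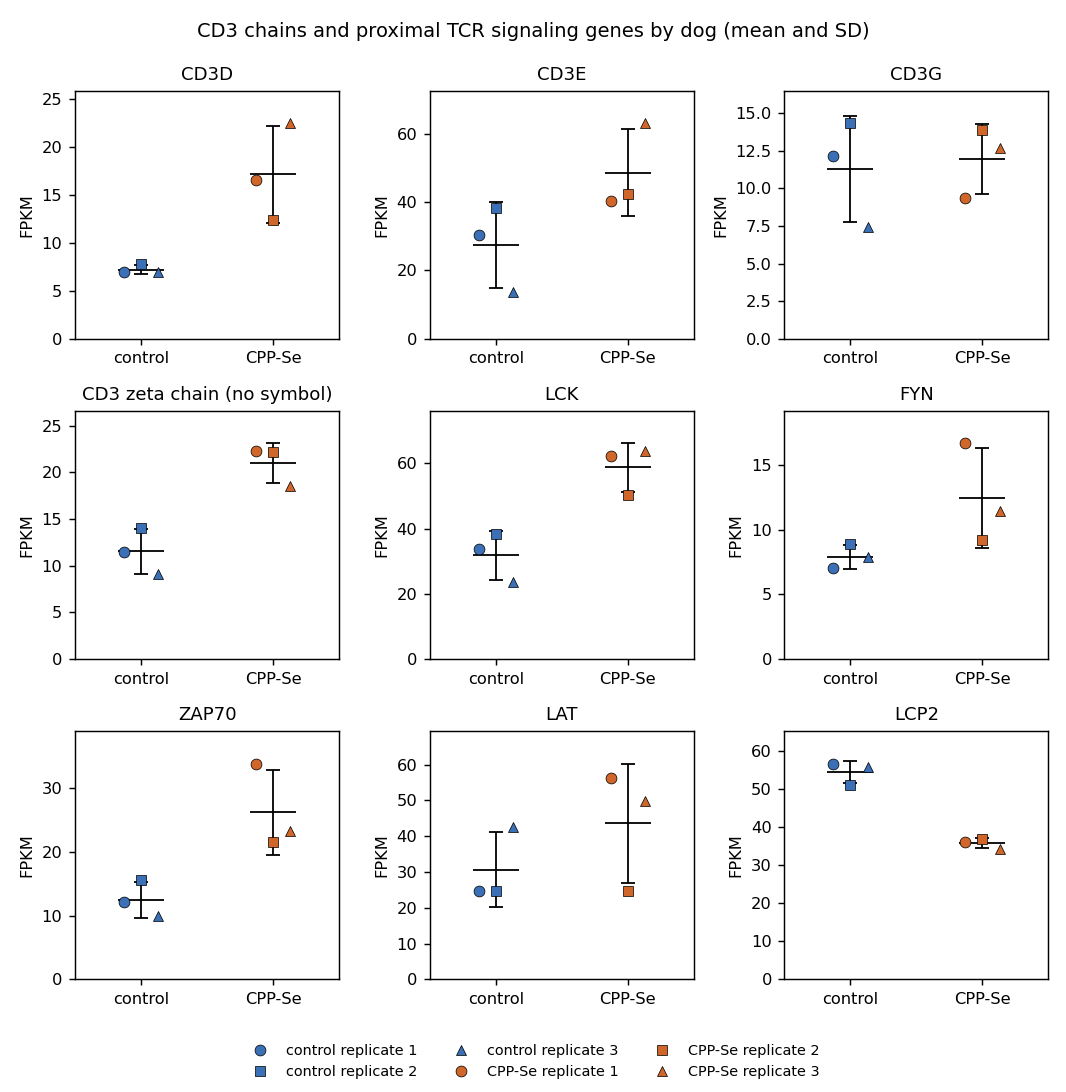
FPKM (y axis, from 0) of the 8 genes and the row described as CD3 zeta chain in 3 control and 3 CPP-Se dogs, 1 symbol per dog, with the mean (horizontal line) and SD (bars). The groups are apart for CD3D, CD3E, LCK, ZAP70, FYN and the zeta row, apart in the other direction for LCP2, and mixed for CD3G and LAT.

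Of the CD3 chains, delta had the largest log2 fold change with all dogs, though not without control replicate 2 (1.16, against 1.18 for CD3E). CD3D (ENSCAFG00000031719, chromosome 5, 15389243 to 15396750) had 6.94, 7.78 and 6.93 FPKM in control replicates 1, 2 and 3, and 16.6, 12.4 and 22.5 FPKM in CPP-Se replicates 1, 2 and 3. The control dogs lay within 1 FPKM of each other, while the CPP-Se dogs were spread. The means were 7.22 ± 0.489 and 17.2 ± 5.07 FPKM (SD, n = 3 dogs per group here and below). The log2 fold change was 1.11 with a standard error of 0.23 (adjusted p = 0.138 from limma, 0.00620 from the negative binomial model).

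CD3E encodes the epsilon chain, which pairs with delta and with gamma. CD3E (ENSCAFG00000012802, chromosome 5, 15403710 to 15415260) had 30.2, 38.3 and 13.8 FPKM in the control dogs and 40.2, 42.5 and 63.2 FPKM in the CPP-Se dogs. The gap between the groups was small, from 38.3 in control replicate 2 to 40.2 in CPP-Se replicate 1, and control replicate 3 was far below the other control dogs. The log2 fold change was 0.89 with a standard error of 0.37 (adjusted p = 0.302 from limma, 0.192 from the negative binomial model). Without control replicate 3 it was 0.47.

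CD3G encodes the gamma chain. CD3G (ENSCAFG00000012780, chromosome 5, 15380633 to 15391214) had 12.1, 14.3 and 7.45 FPKM in the control dogs and 9.35, 13.9 and 12.7 FPKM in the CPP-Se dogs. The highest dog was a control dog and so was the lowest, and the log2 fold change of 0.10 was within its standard error of 0.27. Its sign changed without control replicate 3 (-0.15) and without CPP-Se replicate 2 (-0.01). These values rest on 34 to 105 reads per dog, the fewest of the 8 genes.

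The zeta chain holds more of the phosphorylated tyrosine motifs than any other CD3 chain. The row described as CD3 zeta chain (ENSCAFG00000029072, chromosome 7, 30967013 to 30971096) had 11.4, 14.0 and 9.11 FPKM in the control dogs and 22.3, 22.2 and 18.6 FPKM in the CPP-Se dogs. The groups did not overlap. The log2 fold change was 0.83 with a standard error of 0.20 (adjusted p = 0.161 from limma, 0.0301 from the negative binomial model, which called it).

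CD3G, CD3D and CD3E lie side by side within 34628 bases of chromosome 5. CD3G and CD3D face opposite strands and share 1972 bases (15389243 to 15391214), while a gap of 6959 bases separates CD3D from CD3E. The shared bases are those of the whole gene spans, and whether the counted parts of the 2 genes overlap was not examined. The sources used here do not state whether strand was used in counting, so how any reads there were assigned is not known. CD3D was 0.573, 0.542 and 0.930 times CD3G per length in the control dogs and 1.77, 0.895 and 1.78 times in the CPP-Se dogs. These ratios overlapped between the groups. The ratio of CD3G to CD3E did not, being 0.401, 0.374 and 0.541 for control replicates 1, 2 and 3 and 0.232, 0.326 and 0.200 for CPP-Se replicates 1, 2 and 3. The difference was -0.81 on the log2 scale (exact permutation test, two-sided, p = 0.1, adjusted p = 0.3 over 6 ratios). With 3 dogs against 3 the smallest two-sided p is 0.1. The ratio of CD3D to CD3E overlapped between the groups (0.312 ± 0.166 and 0.353 ± 0.0598), and that of the zeta row to CD3E did too (0.469 ± 0.168 and 0.456 ± 0.142).

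**Figure D2:**
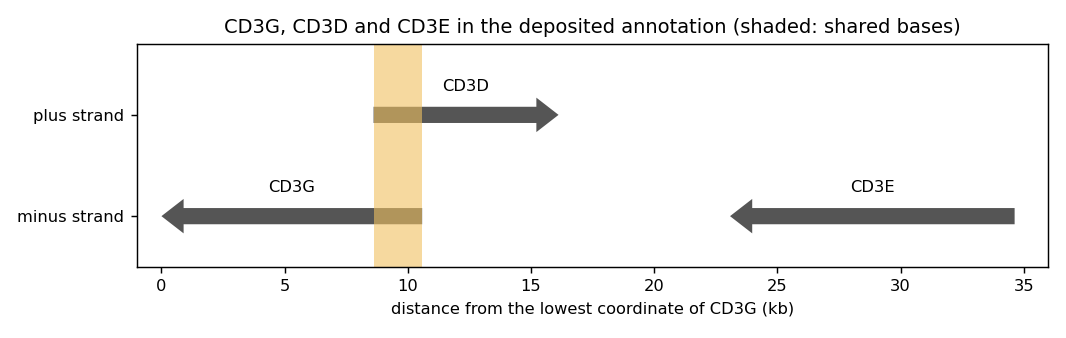
Positions of CD3G, CD3D and CD3E in the deposited annotation, as distance in kb from the lowest coordinate of CD3G (x axis), with arrows in the direction of transcription. The shaded 1972 bases belong to the spans of both CD3G and CD3D, on opposite strands.

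Of the kinases, LCK phosphorylates the CD3 chains and is brought to the receptor by CD4 and CD8. LCK (ENSCAFG00000010625, chromosome 2, 68941249 to 68964567) had 33.7, 38.4 and 23.6 FPKM in the control dogs and 62.4, 50.2 and 63.7 FPKM in the CPP-Se dogs. The lowest CPP-Se dog was above the highest control dog by more than the SD of either group. The means were 31.9 ± 7.53 and 58.8 ± 7.40 FPKM, and the log2 fold change was 0.88 with a standard error of 0.23 (adjusted p = 0.171 from limma, 0.0168 from the negative binomial model).

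ZAP70 binds the phosphorylated CD3 chains and passes the signal to the adaptors. ZAP70 (ENSCAFG00000002371, chromosome 10, 44887433 to 44900071) had 12.1, 15.6 and 9.88 FPKM in the control dogs and 33.9, 21.6 and 23.4 FPKM in the CPP-Se dogs. CPP-Se replicate 1 was the highest dog, and all CPP-Se dogs were above all control dogs. The means were 12.5 ± 2.86 and 26.3 ± 6.66 FPKM, and the log2 fold change was 1.01 with a standard error of 0.24 (adjusted p = 0.161 from limma, 0.00655 from the negative binomial model). ZAP70 shares 969 bases at its start with ACTR1B, a dynactin subunit gene on the other strand, which had 51 to 144 reads per dog against 205 to 742 on ZAP70.

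FYN is the second SRC family kinase of the receptor and is expressed in many tissues. FYN (ENSCAFG00000003995, chromosome 12, 68075184 to 68316541) had 7.02, 8.87 and 7.87 FPKM in the control dogs and 16.7, 9.20 and 11.5 FPKM in the CPP-Se dogs. The groups were separated by 8.87 in control replicate 2 and 9.20 in CPP-Se replicate 2, a gap smaller than the SD of either group. The log2 fold change was 0.56 with a standard error of 0.24 (adjusted p = 0.302 from limma, 0.183 from the negative binomial model), and 0.34 without CPP-Se replicate 1.

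LAT is the membrane adaptor on which signaling complexes assemble. LAT (ENSCAFG00000017333, chromosome 6, 18459061 to 18462694) had 24.7, 24.7 and 42.7 FPKM in the control dogs and 56.3, 24.7 and 49.7 FPKM in the CPP-Se dogs. CPP-Se replicate 2 was level with control replicates 1 and 2, and control replicate 3 came close to the upper CPP-Se dogs. The log2 fold change was 0.46 with a standard error of 0.35 (adjusted p = 0.571 from limma). Leaving out CPP-Se replicate 2 moved it to 0.81, and leaving out CPP-Se replicate 1 moved it to 0.24. Without CPP-Se replicate 2 the LAT groups no longer overlapped, and without control replicate 3 they were apart only by a margin far under 1 FPKM. LAT shares 378 bases with SPNS1, a transporter gene on the same strand, which had 148 to 368 reads per dog against 182 to 417 on LAT.

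LCP2 encodes the adaptor that links LAT to the exchange factor VAV1. LCP2 (ENSCAFG00000016961, chromosome 4, 41611775 to 41656364) had 56.7, 51.2 and 55.7 FPKM in the control dogs and 36.1, 36.8 and 34.4 FPKM in the CPP-Se dogs. The dogs of each group were close together, and the groups were far apart. The means were 54.5 ± 2.93 and 35.8 ± 1.28 FPKM, and the log2 fold change was -0.59 with a standard error of 0.16 (adjusted p = 0.183 from limma, 0.0166 from the negative binomial model). LCP2 was the only 1 of the 8 genes with a negative log2 fold change. When FPKM were brought to a common sum, with or without the hemoglobin genes, its log2 fold change was -0.44 and -0.45 and the groups overlapped.

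**Figure D3:**
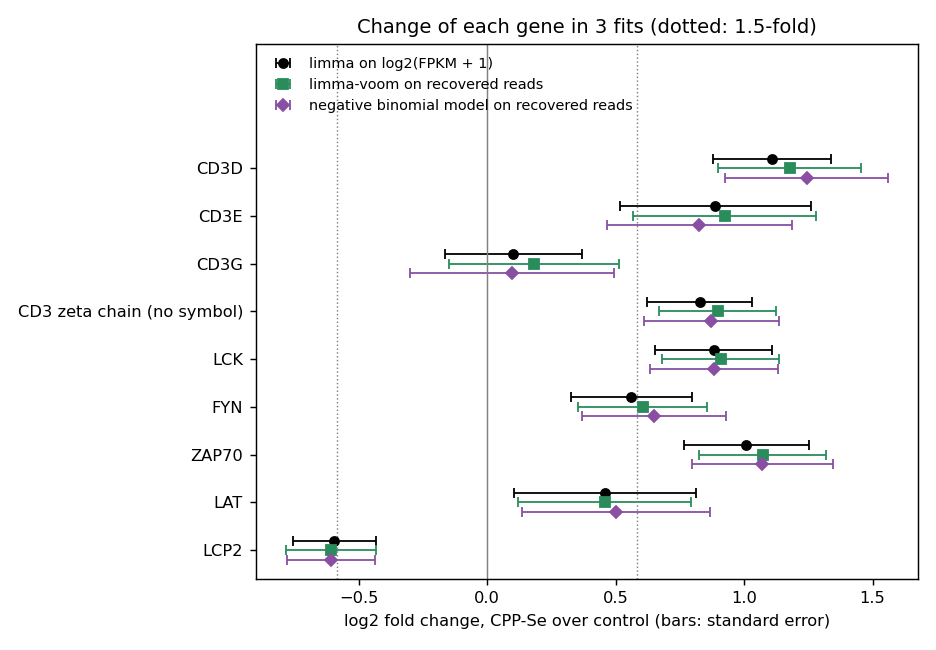
Log2 fold change (x axis, CPP-Se over control) of the 8 genes and the zeta row in limma on log2(FPKM + 1), limma-voom and the negative binomial model, with standard errors as bars and 1.5-fold marked by dotted lines. The fits place each gene at nearly the same value, with CD3D at 1.11 to 1.24 and LCP2 at -0.61 to -0.59.

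In the control group, LCP2 had the highest level per length of these genes, and its range did not overlap that of LCK, the next in order. LCK (31.9 FPKM), LAT (30.7 FPKM) and CD3E (27.4 FPKM) followed with ranges that overlapped. ZAP70, the zeta row, CD3G, FYN and CD3D lay between 12.5 and 7.22 FPKM, and each overlapped its neighbour in the order. In the CPP-Se group the order began with LCK (58.8 FPKM), CD3E (48.6 FPKM) and LAT (43.6 FPKM), and LCP2 (35.8 FPKM) came next, with a range that overlapped that of LAT but not that of ZAP70 (26.3 FPKM). CD3G had the lowest mean there.

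LCP2 was 1.68, 1.33 and 2.36 times LCK in the control dogs and 0.579, 0.733 and 0.540 times LCK in the CPP-Se dogs, so LCP2 exceeded LCK in every control dog and in no CPP-Se dog. Set against the mean of CD3D, CD3E and CD3G in the same dog, LCP2 was higher by 2.02 ± 0.466 on the log2(FPKM + 1) scale in the control group and by 0.72 ± 0.309 in the CPP-Se group. The groups differed by -1.29 without overlap (exact permutation test, two-sided, p = 0.1, the smallest possible with 3 dogs against 3). LCP2 and the mean of the CD3 chains each separated the groups already, in opposite directions. The outcome of this test was therefore fixed in advance and adds no support. Over other pseudocounts, scalings and each dog left out, this difference lay between -1.51 and -1.05. A factor common to a library nearly cancels in a difference within a dog, so the common sums and size factors could hardly move it.

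Individual dogs followed no single order across the genes. Control replicate 3 had the lowest value of all 6 dogs for 5 of the 8 genes, but the highest LAT of the control dogs. CPP-Se replicates 1 and 3 were each the highest dog for 3 genes. CPP-Se replicate 2, the library with the low hemoglobin share, was the highest dog for 0 genes and the lowest for 0.

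Other genes of T cells also tended to be higher in the CPP-Se group, so each gene was set against them within each dog. The mean log2(FPKM + 1) of 13 T cell marker genes, among them CD2, CD5, CD6, CD8A and IL7R, was 3.18, 3.68 and 2.88 for control replicates 1, 2 and 3 and 3.88, 3.70 and 4.09 for CPP-Se replicates 1, 2 and 3. All 13 genes had a positive log2 fold change, with a median of 0.53, and 5 of them (38.5%) were higher without overlap, against 10.4% of all genes. With limma 0 of the 13 were called (adjusted p from 0.144 to 0.613), against 0.0305% of all genes. The negative binomial model called 2 of them, both as higher, against 1.47% of all genes. Relative to this mean, LCP2 was lower by 1.24 in the CPP-Se group and CD3G was lower by 0.54, while CD3D, ZAP70, CD3E and LCK were higher by 0.46, 0.36, 0.24 and 0.24. FYN and LAT differed by -0.08 and -0.19. Single dogs moved several of these differences: CD3E had 0.01 without control replicate 3, 0.14 without CPP-Se replicate 3 and 0.40 without control replicate 1, ZAP70 had 0.17 without CPP-Se replicate 1, and CD3D had 0.30 without control replicate 2. Of the 8 genes, CD3G and LCP2 had groups that did not overlap on this scale (exact permutation test, two-sided, p = 0.1 for both, adjusted p = 0.4 over the 8 genes). For CD3G the margin was narrow, between 0.20 in control replicate 3 and 0.19 in CPP-Se replicate 2, and the groups overlapped under both common sums of FPKM (exact p = 0.2). Those of LCP2 had to separate, as LCP2 was lower and the T cell mean higher in every CPP-Se dog than in any control dog. They stayed apart in all scalings run, but a factor common to a library nearly cancels on this scale. The groups of LCK came apart under quantile normalization (exact p = 0.1). For CD3D, LCK, ZAP70 and CD3E the exact p were 0.2, 0.2, 0.3 and 0.6, and for FYN and LAT 0.7 and 0.8.

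**Figure D4:**
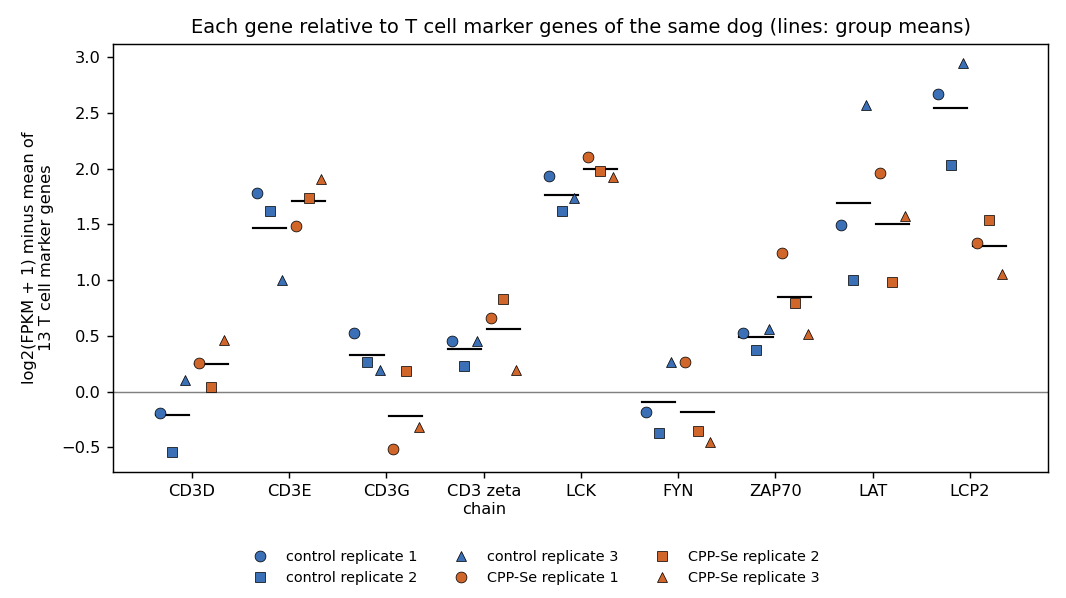
log2(FPKM + 1) of each gene minus the mean of 13 T cell marker genes in the same dog (y axis), 1 symbol per dog, with lines at the group means. The groups of LCP2 are well apart, lower in the CPP-Se dogs, those of CD3G are apart only by 0.20 against 0.19 and overlap when FPKM are brought to a common sum, and those of the other genes overlap.

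The wider TCR pathway was taken as 42 other genes, of which 40 were in the table and all 40 were tested. Their median log2 fold change was 0.05, and 20 had a positive one. Without overlap between the groups, 9 genes (22.5%) had higher values with CPP-Se and 5 (12.5%) had lower ones, against 10.4% and 12.6% of all genes. SIT1 and SH2D2A were among those with the largest positive differences. SIT1, a membrane adaptor of T cells, had 6.64 and 13.3 FPKM in the control and CPP-Se groups (log2 fold change 0.92, standard error 0.22). SH2D2A, a T cell adaptor, had 1.91 and 3.79 FPKM.

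Of the genes lower in the CPP-Se group, CBL, a ubiquitin ligase that acts downstream of many receptors, had 28.7 and 18.1 FPKM in the control and CPP-Se groups (log2 fold change -0.65, standard error 0.18). FYB1, an adaptor that binds the product of LCP2, had 47.6 and 31.4 FPKM, and SOS1, an exchange factor for RAS, had 5.19 and 3.30 FPKM. With limma, none of the 40 genes passed, at adjusted p from 0.157 to 0.997, while 9 had an unadjusted p under 0.05 as higher and 4 as lower, against 6.87% and 9.10% of all genes. The negative binomial model called 2 of the 40, among them CBL as lower. These 40 genes fell into 10 kinases and phosphatases with a median log2 fold change of 0.24, 20 adaptors and effectors with -0.09, and 10 genes farther downstream with 0.04. When FPKM were brought to a common sum, with or without the hemoglobin genes, the median of all genes was raised to 0.13 and 0.12, that of the 40 to 0.20 and 0.19, and that of the adaptors turned positive (0.05 and 0.04). The kinases then had 0.38 and 0.36, and the genes farther downstream 0.18 and 0.17. Without CPP-Se replicate 2 the medians of the adaptors (0.03) and of the genes farther downstream (-0.02) changed sign.

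Genes that T cells switch on after TCR engagement were mostly near the limit of detection. Of 15 such genes only 6 were tested, TNFRSF9 was listed at 0 in all 6 dogs, and IL2 and IFNG were each above 0 in a single dog. The median log2 fold change of the 6 was 0.35, and 0.54 without CPP-Se replicate 2. Of the 6, 4 had a positive log2 fold change, while NR4A1 (-0.45) and NFKBID (-0.35) had negative ones with groups that overlapped. MYC, which other cycling blood cells also express, was the only 1 of these 6 (16.7%) whose groups did not overlap, against 10.4% of all genes for higher values, with 22.9 and 30.9 FPKM in the control and CPP-Se groups and a log2 fold change of 0.42 ± 0.18 (standard error), with an adjusted p = 0.303 from limma. EGR1, which did not pass the filter on low values, had 0.458 to 0.899 FPKM in the control dogs and 1.05 to 1.52 FPKM in the CPP-Se dogs, and was not tested. CD69, an early activation antigen, had 1.45, 2.69 and 0.224 FPKM in the control dogs and 2.11, 0.676 and 2.80 FPKM in the CPP-Se dogs, which overlapped.

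B cells and myeloid cells signal through relatives of these proteins, with SYK in the place of ZAP70 and LYN and FGR in the place of LCK. Of 11 such genes tested, 6 were lower without overlap and 1 was higher, against 12.6% and 10.4% of all genes, and their median log2 fold change was -0.45. This median was -0.30 and -0.31 under the common sums and -0.26 under quantile normalization. SYK had 107, 99.4 and 126 FPKM in the control dogs and 72.7, 78.2 and 56.6 FPKM in the CPP-Se dogs. Its log2 fold change was -0.68 (standard error 0.21, adjusted p = 0.197 from limma, 0.0484 from the negative binomial model). LYN had 61.2, 61.4 and 50.7 FPKM in the control dogs and 34.6, 39.9 and 34.7 FPKM in the CPP-Se dogs. For LYN the log2 fold change was -0.65 (standard error 0.18, adjusted p = 0.183 from limma, 0.0152 from the negative binomial model). FGR had 78.1 and 44.7 FPKM in the control and CPP-Se groups. SYK and LYN were lower and ZAP70 and LCK higher in every CPP-Se dog than in any control dog. BLNK, the relative of LCP2 in B cells, was higher without overlap but stood at only 1.02 and 1.66 FPKM.

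Marker genes of the blood cell types were compared too, and limma called 0 in each list (0.0305% of all genes). The negative binomial model called 3 NK and cytotoxic genes as higher, 5 monocyte genes as lower, and 4 neutrophil genes as lower and 1 as higher. It called 0 B cell genes, against 1.47% of all genes as higher and 2.79% as lower. Without overlap, 4 NK and cytotoxic and 5 B cell genes were higher, against 10.4% of all genes. Lower without overlap were 8 monocyte and 4 neutrophil genes (1 higher), against 12.6%. The median log2 fold changes were 0.53 for 13 T cell genes, 0.80 for 11 genes of NK and cytotoxic cells and 0.62 for 11 B cell genes, and -0.85 for 10 monocyte genes and -0.71 for 10 neutrophil genes (-0.46 under quantile normalization). The summed FPKM of all monocyte markers in the table was 872 to 1019 in the control dogs and 424 to 501 in the CPP-Se dogs, without overlap. That of the T cell markers was 107 to 230 in the control dogs and 240 to 291 in the CPP-Se dogs, and that of NK and cytotoxic cells was 27.5 to 56.0 and 65.4 to 106, both also without overlap. The sums of B cell markers were 305 to 425 and 465 to 499, and those of neutrophil markers 2255 to 3008 and 1745 to 2259, so the neutrophil sums overlapped. That overlap rested on MMP9, a secreted protease, which had 68.3 to 96.3 FPKM in the control dogs and 729, 23.7 and 540 FPKM in the CPP-Se dogs. Without MMP9, a choice made after seeing the data, the sums were 2169 to 2911 and 1205 to 1779 FPKM and did not overlap. None of these lists had a marker at 0 in all 6 dogs. The part of these markers in the values of LCK, ZAP70, the CD3 chains and LCP2 was not tested beyond the differences within each dog given above.

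Named examples of these lists are CD6 (20.1 and 47.5 FPKM in the control and CPP-Se groups) and CD27 (9.74 and 18.4 FPKM) of T cells, TBX21 (4.26 and 14.1 FPKM) and PRF1 (4.47 and 12.6 FPKM) of cytotoxic cells, and CD22 (log2 fold change 0.89) of B cells. Of the 11 B cell genes tested, 10 had a positive log2 fold change. Lower in the CPP-Se group were VCAN (21.6 and 7.48 FPKM) and LYZ (533 and 211 FPKM) of monocytes, and CXCR2 (193 and 84.9 FPKM) and CSF3R (903 and 486 FPKM) of neutrophils. CAMP, listed with neutrophils, was higher without overlap (0.692 and 7.54 FPKM), and MMP9 and PGLYRP1 of that list had positive log2 fold changes (1.35 and 0.62) with groups that overlapped. Platelet markers, which matter here because platelets also use LAT, FYN and LCP2, overlapped in their sums (718 to 1535 and 514 to 1782 FPKM). The red cell sums overlapped as well (1435 to 3667 and 2363 to 3555 FPKM). Of the 12 red cell genes 8 had a positive log2 fold change, with a median of 0.60, and TMCC2, RHAG and ANK1 (25%) were higher without overlap, against 10.4% of all genes, while ALAS2, SPTB, KLF1 and SLC25A37 had negative values from -0.56 to -0.07 and overlapped.

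**Figure D5:**
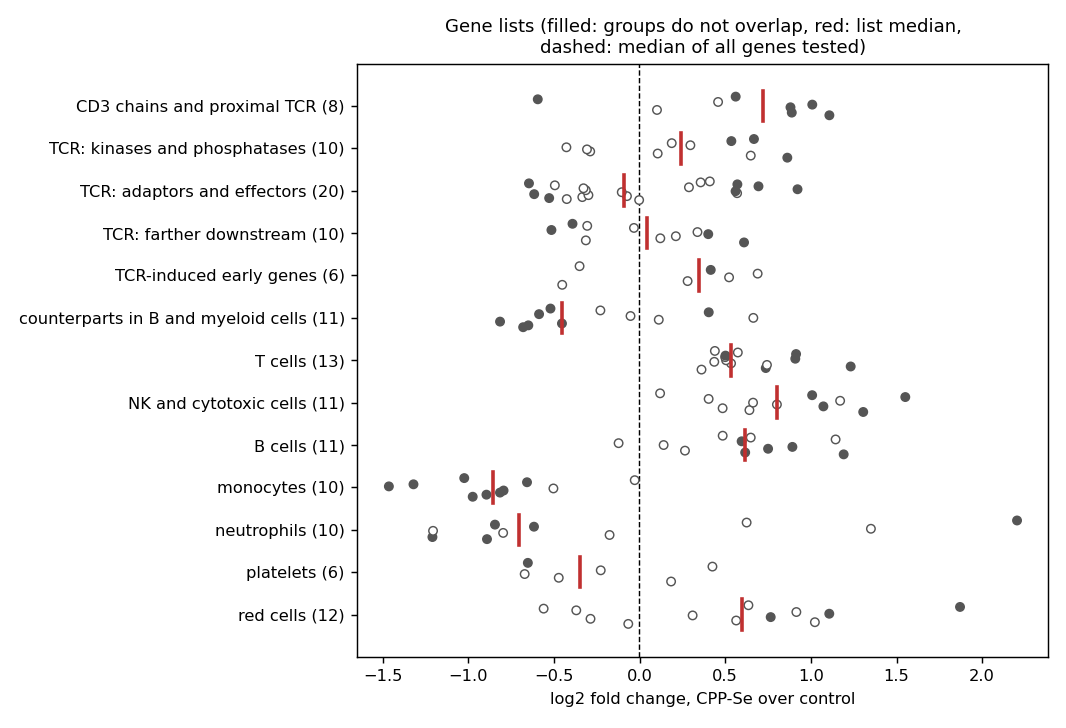
Log2 fold change (x axis, CPP-Se over control) of every gene tested in each list, 1 circle per gene, filled where the groups did not overlap, with the list median in red, the number tested in brackets and the median of all genes dashed. T and NK cell genes and most of the B cell, CD3 and proximal TCR genes lie to the right, and monocyte genes and the B and myeloid counterparts lie mostly to the left.

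To find genes whose level followed the CD3 genes from dog to dog, each gene tested was centred on its own mean over the 6 dogs, and its root mean square difference from the mean profile of CD3D, CD3E and CD3G was taken on the log2(FPKM + 1) scale. The median of this difference over the 9847 genes was 0.55. The measure counts the size of the swings as well as their shape. A gene that hardly varied would also lie below this median, so a value under it does not by itself show a gene that followed CD3. Among the 5 nearest genes with a symbol were RFTN1 (0.11), PLAC8 (0.12), CLEC2D (0.13) and IL24 (0.14). RFTN1 encodes a protein of lipid rafts in lymphocytes, and had 13.9, 17.9 and 9.68 FPKM in the control dogs and 20.1, 22.7 and 23.9 FPKM in the CPP-Se dogs. CLEC2D is a lectin-like ligand of an NK cell receptor. IL24 rested on only 20 to 84 reads per dog.

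Of the genes described here, LCK was the nearest to that profile (0.17, the 22nd of all genes), nearer than CD3E (0.22), CD3D (0.32) and CD3G (0.34), from which the profile was made. The zeta row followed at 0.26, ZAP70 at 0.35 and FYN at 0.39. LAT (0.62) and LCP2 (0.72) were farther from it than the median gene. LCP2 was centred at 0.21 to 0.35 above its mean in the control dogs and at -0.35 to -0.25 in the CPP-Se dogs, while LAT was above its mean in control replicate 3 and below it in CPP-Se replicate 2.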

How the data were processed

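Whole blood RNA of 3 control and 3 CPP-Se dogs was compared, as 1 library per dog. RNA was extracted with Trizol, poly-A mRNA was enriched and libraries were made with the NEBNext Ultra kit and sequenced as paired ends on a NovaSeq. Per the submitters' processing notes and the study's methods, reads were filtered with fastp 0.19.7, aligned with HISAT2 2.0.5 (dog genome, Ensembl release 100) and counted with featureCounts 1.5.0-p3. The authors deposited FPKM from gene length and these reads. The deposited columns of gene start, end and length were used as given.

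Genes whose FPKM averaged 1 or more across all dogs (9847 of 31512) were fitted in limma 3.58.1 (R 4.3.3; lmFit, eBayes with trend) on log2(FPKM + 1), which understates changes of low genes. Tests were two-sided, with Benjamini-Hochberg adjustment over all genes tested. Genes were called at 1.5-fold or more with an adjusted p under 0.05. FPKM multiplied by length were whole multiples of 1 step per library for 100% of values (tolerance 0.02), which gave the reads on each gene. The library sizes implied by the FPKM matched median-of-ratios size factors within 0.786%. No molecular identifiers are named in the sources used here, so counting error is a lower limit of the error of these reads. The labels number 3 biological replicates per group, and p-values measure the spread between these dogs.

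Alternatives were another pseudocount, filter, scaling and variance model, replicate number as a block, limma-voom and a negative binomial model (dispersions shrunk to a trend, Wald test) on the recovered reads, and each dog left out. Single values were compared by exact permutation tests in scipy 1.17.1 (Python 3.11.15). The genes named were all 8 found, the largest differences without overlap of each list (up to 3 each way for the wider pathway, 2 for the others), SYK and LYN, overlapping genes and the 5 nearest profiles. CD69, EGR1, NR4A1, NFKBID, IL2, IFNG, TNFRSF9, MMP9, PGLYRP1 and the red cell genes other than TMCC2 and RHAG were named after their values were seen, as were the markers CD2, CD5, CD8A and IL7R. The genes and lists were chosen with earlier results of these data known. Some genes that this rule names are not reported here.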

Additional observations from a re-analysis of the deposited data

How the results depend on the processing

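Calls depended most on the test. The number of DEGs over all genes was 3 in limma on log2(FPKM + 1). It was 0 with a pseudocount of 0.1 and without a filter, 1 with a mean of at least 5 FPKM, 12 with a common sum of FPKM, 1 with limma-voom and 420 with the negative binomial model, and 0 to 14 with each dog left out, the highest without CPP-Se replicate 2. Of the 8 genes 4 were called, and of the wider pathway 2, by the negative binomial model, and 0 in each of the other fits. The calls of CD3D, LCK, ZAP70, LCP2 and the zeta row therefore rest on that model. The cause was not tested.

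The genes without overlap numbered 5 to 7 over all alternatives, LCP2 being the gene lost under both common sums and LAT the gene added without control replicate 3 or CPP-Se replicate 2. Groups separate more easily when a dog is left out, so the count of 7 is not comparable with the 23.0% of all genes, which holds for all dogs. CD3G changed sign with a dog left out, with log2 fold changes of -0.15 to 0.28, and the other 7 genes kept theirs in every alternative run. Relative to the T cell markers, the differences of LAT (-0.53 to 0.25) and FYN (-0.31 to 0.10) changed sign with a dog left out.

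Replicate numbers are shared by the groups but did not pair the dogs: deviations of same-numbered dogs correlated at 0.016, -0.090 and -0.043 across genes, and no dog correlated best with its own number. With the replicate block 1 gene was called over all genes and 0 of the 8. With 3 dogs per group and 34 to 105 reads per dog, CD3G is the gene most limited by depth.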
